A study of Mus musculus with 9 samples.

Results

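Myosin light chains are small proteins that wrap the neck of the myosin heavy chain, the motor of muscle contraction. Each heavy chain binds an essential and a regulatory light chain, and striated muscle draws both from sets of isoforms that differ between fast, slow, cardiac and embryonic fibres. In adult rodent limb muscle the fast isoforms come from Myl1 and Mylpf, and the slow isoforms, shared with the heart ventricle, from Myl3 and Myl2.

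The 6 sarcomeric light chain genes Myl2, Myl3, Myl6b, Myl1, Mylpf and Myl4 were taken by name from the 22180 genes that the array table gives a single symbol, and all 6 were measured, each by 1 probe set. The slow genes were Myl2 (regulatory), Myl3 (essential) and Myl6b (essential, counted as slow from its human name, slow skeletal alkali light chain). The fast genes were Mylpf (regulatory) and Myl1 (essential, the source of a long and a short chain that 1 probe set does not separate). Myl4 encodes the essential chain of the atrium and of embryonic muscle.

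RNA of 9 skeletal muscles from male C57BL/6J mice aged 12 weeks, with no treatment or allele given in the labels, was hybridised to whole-transcript arrays, 1 array per muscle. By general anatomy the muscles were grouped as hindlimb (soleus, gastrocnemius, rectus femoris, tibialis anterior, n = 4), shoulder and forelimb (trapezius, triceps, supraspinatus, n = 3) and head (digastric, masseter, n = 2). The soleus is the classical slow muscle of rodents and was also set against the other 8 muscles. Values are log2 expression values, where 1 unit is a doubling, and their precision is limited by having so few arrays. The labels do not say how many animals gave each RNA, and differences between muscles, animals and arrays cannot be told apart.

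The arrays carried the RNA of skeletal muscle. Skeletal actin, Acta1, lay between 12.76 and 12.94 on all 9, and muscle creatine kinase, Ckm, between 12.12 and 12.85. Because Myl2 and Myl3 are also heart genes, 8 cardiac markers were read beside them. In soleus they averaged 3.43 and elsewhere 3.34 to 3.72, close to the array medians of 3.34 to 3.44. Atrial light chain Myl7 was at 2.78 in soleus and 2.69 to 3.96 elsewhere, and natriuretic peptide Nppa at 3.73 in soleus and 3.46 to 3.98 elsewhere. Tnni3, the cardiac troponin I gene, was at 4.55 in soleus, above its 4.23 to 4.48 elsewhere. Against the mean of the other 8 muscles, 4 of the 8 markers were higher in soleus and 4 lower. Triceps, rectus femoris and gastrocnemius had a narrower spread over all probe sets (SD 1.92 to 1.96) than the other 6 arrays (2.03 to 2.08), and values that go with this split are given where they touch a light chain.

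**Figure D1:**
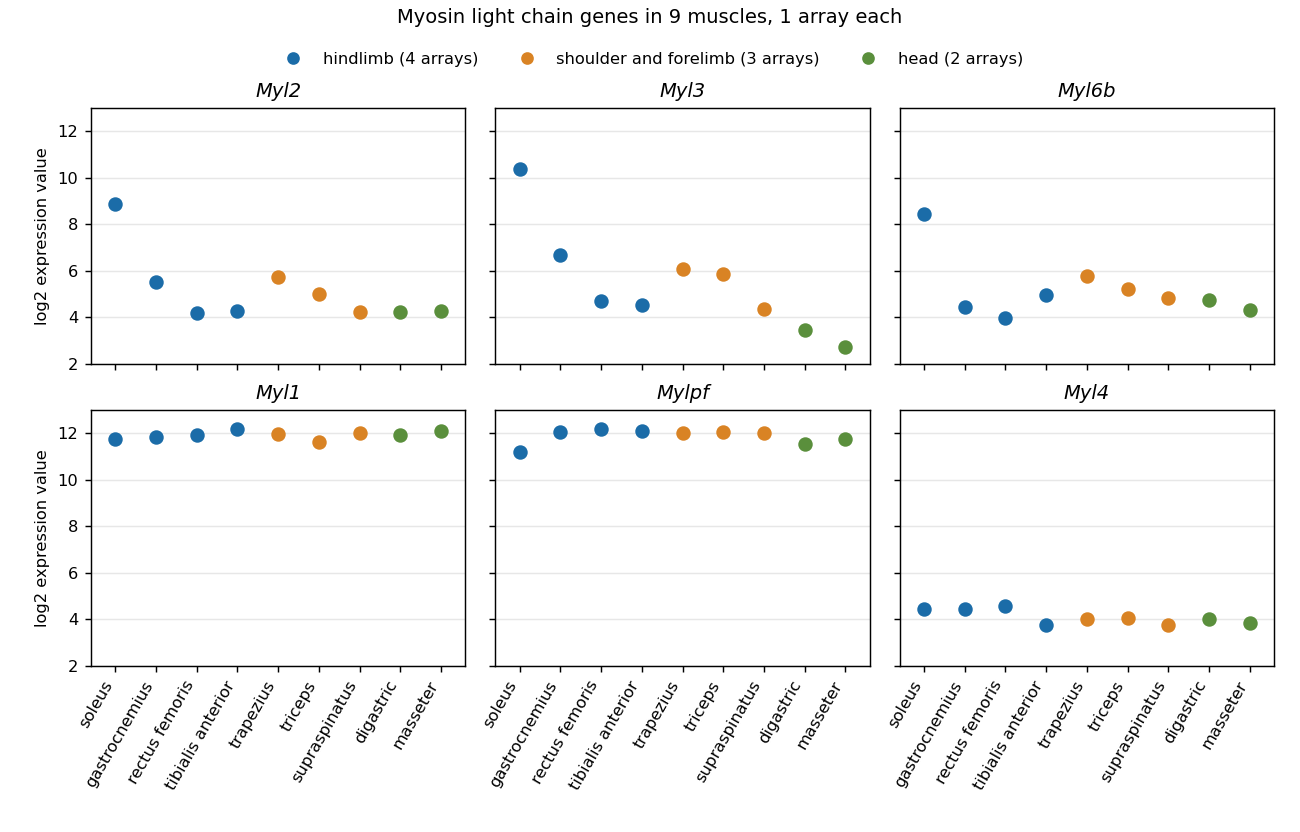
Log2 expression value (y axis) of each light chain gene in 9 muscles (x axis), 1 point per array, coloured by body region. Myl2, Myl3 and Myl6b are highest in soleus at 8.87, 10.39 and 8.46, Mylpf is lowest there at 11.20, and Myl1 and Myl4 stay within 0.54 and 0.81 log2 units over the 9 arrays. Levels of different genes come from different probe sets and are not compared.

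The slow light chains differed most between muscles. Myl3, the slow essential chain, was at 10.39 in soleus. It was at 6.70 in gastrocnemius, 6.09 in trapezius, 5.88 in triceps, 4.69 in rectus femoris, 4.54 in tibialis anterior, 4.35 in supraspinatus, 3.46 in digastric and 2.71 in masseter. The range was 7.67 log2 units in the deposited values. The masseter value lay below the median of its array (3.37), and the digastric value just above that of its own (3.37). Both may be background, which was not tested. The range and the folds against means that hold such values are therefore estimates and no bounds. Apart from soleus, Myl3 was at 5.76 ± 1.01 (SD, n = 3) on the 3 arrays of narrower spread and at 4.23 ± 1.27 (SD, n = 5) on the 5 of wider spread, with overlap, and the part of this split in its order was not tested.

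Myl2, the slow regulatory chain, was at 8.87 in soleus. It was at 5.73 in trapezius, 5.51 in gastrocnemius and 5.0 in triceps, and between 4.20 and 4.28 in the other 5 muscles. Those 5 arrays spanned 0.08 log2 units for Myl2, and over the same 5 arrays Myl3 spanned 1.98. Whether the flat Myl2 values mark the floor of its probe set was not tested. The range of Myl2 over the 9 arrays was 4.67.

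Myl6b was at 8.46 in soleus, 5.77 in trapezius, 5.22 in triceps, 4.97 in tibialis anterior, 4.84 in supraspinatus, 4.76 in digastric, 4.46 in gastrocnemius, 4.31 in masseter and 3.98 in rectus femoris. Its range was 4.47. Gastrocnemius, the second muscle for Myl3 and the third for Myl2, was the seventh for Myl6b.

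With 1 array per muscle, neighbours in these orders were set against the typical difference between 2 arrays, the median over all pairs of arrays and all genes whose mean lay within 1 log2 unit of the member. This was 0.26 for Myl2, Myl3 and Myl6b. For Myl2 the gaps above it were those between soleus and trapezius (3.14), gastrocnemius and triceps (0.51), and triceps and masseter (0.71). For Myl3, 5 of the 8 gaps were above it, the widest being soleus to gastrocnemius (3.69) and triceps to rectus femoris (1.18). Rectus femoris, tibialis anterior and supraspinatus followed each other within it for Myl3, as did trapezius and triceps. For Myl6b, 4 of the 8 gaps were above it. They were soleus to trapezius (2.69), trapezius to triceps (0.55), digastric to gastrocnemius (0.30) and masseter to rectus femoris (0.33).

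**Figure D2:**
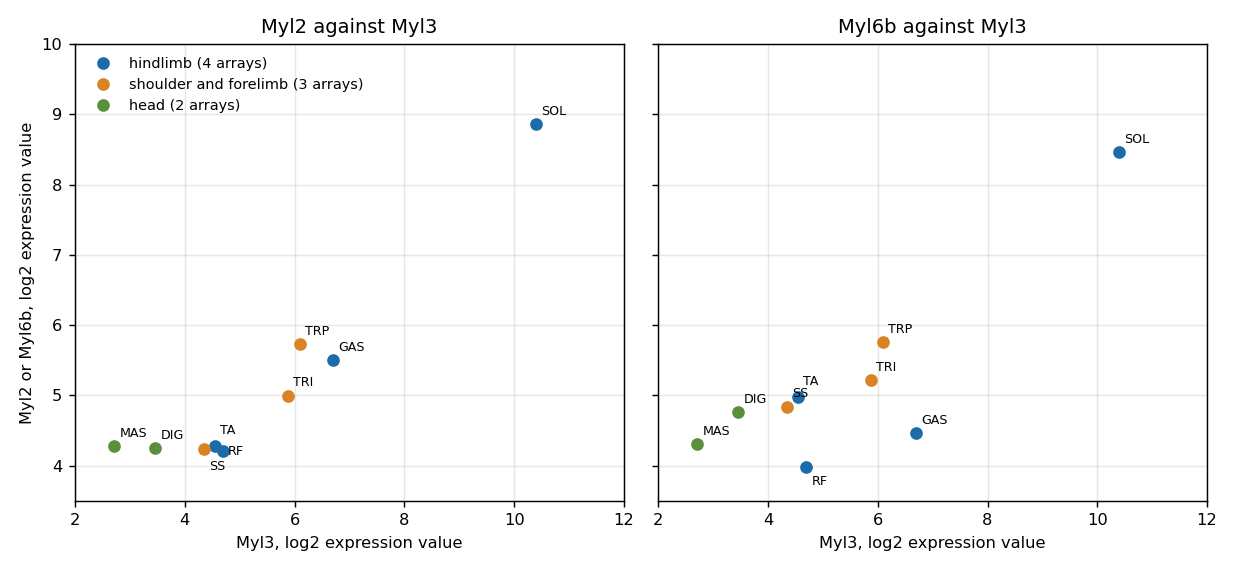
Myl2 (left, y axis) and Myl6b (right, y axis) against Myl3 (x axis), all as log2 expression values, with 1 point per muscle coloured by region (SOL soleus, GAS gastrocnemius, RF rectus femoris, TA tibialis anterior, TRP trapezius, TRI triceps, SS supraspinatus, DIG digastric, MAS masseter). Soleus (Myl3 at 10.39) stands apart in both panels, Myl2 is flat from 4.20 to 4.28 over 5 muscles in which Myl3 runs from 2.71 to 4.69, and gastrocnemius lies low for Myl6b (4.46) at a Myl3 of 6.70.

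Over the 9 arrays Myl2 and Myl3 had a Pearson r of 0.945 and Myl2 and Myl6b one of 0.932. Over the 8 other arrays r was 0.837 for Myl2 with Myl3, 0.558 for Myl2 with Myl6b and 0.408 for Myl3 with Myl6b. These are descriptions over 8 or 9 single arrays that share 1 normalization.

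The promoters of the genes that were high together in soleus are shown beside those of the fast genes, since the data set these groups against each other. Each line holds the 250 bases before a RefSeq start in GRCm38.p6, 5′ to 3′ on the strand of the gene, and capitals mark matches on either strand to an E box (CANNTG, bound by myogenic factors), an MCAT element (CATTCC, bound by TEAD factors), a MEF2 site or a CArG box (bound by serum response factor). All 6 genes were in the RefSeq table, and for Myl2, with 2 listed starts, the first is shown. The labels name no build for the array design, and the windows are not tied to the probe sets.
Myl3 (chr9:110763428-110763677, plus strand): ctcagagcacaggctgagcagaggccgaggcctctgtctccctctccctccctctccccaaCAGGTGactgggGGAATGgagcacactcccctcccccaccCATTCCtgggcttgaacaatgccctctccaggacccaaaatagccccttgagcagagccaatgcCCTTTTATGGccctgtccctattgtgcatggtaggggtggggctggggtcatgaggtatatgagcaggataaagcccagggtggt
Myl2 (chr5:122092474-122092723, plus strand): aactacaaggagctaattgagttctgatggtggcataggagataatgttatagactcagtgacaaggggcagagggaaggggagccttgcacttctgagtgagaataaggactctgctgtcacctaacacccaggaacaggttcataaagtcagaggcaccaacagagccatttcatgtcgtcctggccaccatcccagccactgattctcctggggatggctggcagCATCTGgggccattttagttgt
Myl6b (chr10:128498686-128498935, minus strand): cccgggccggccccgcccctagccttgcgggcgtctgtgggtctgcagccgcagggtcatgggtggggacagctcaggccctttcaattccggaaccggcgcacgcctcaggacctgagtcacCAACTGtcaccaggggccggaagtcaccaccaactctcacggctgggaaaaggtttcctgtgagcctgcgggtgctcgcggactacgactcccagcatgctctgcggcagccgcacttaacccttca
Mylpf (chr7:127211358-127211607, plus strand): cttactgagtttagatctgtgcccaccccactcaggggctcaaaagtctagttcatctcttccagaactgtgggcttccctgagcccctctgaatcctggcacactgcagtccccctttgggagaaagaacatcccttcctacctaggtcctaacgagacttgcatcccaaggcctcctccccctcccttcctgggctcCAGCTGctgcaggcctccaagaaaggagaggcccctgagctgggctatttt
Myl1 (chr1:66945057-66945306, minus strand): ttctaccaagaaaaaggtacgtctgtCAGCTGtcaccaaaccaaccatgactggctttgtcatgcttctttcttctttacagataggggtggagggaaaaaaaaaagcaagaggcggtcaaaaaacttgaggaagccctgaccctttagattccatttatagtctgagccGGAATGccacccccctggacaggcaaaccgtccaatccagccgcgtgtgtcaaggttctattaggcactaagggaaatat

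Each of these 5 windows held 1 E box, a motif found in 66.2% of all 32851 windows of this length. The Myl3 window held the CArG box CCTTTTATGG, at bases -85 to -76 relative to the start, and 2 MCAT elements, and the Myl1 window held 1 MCAT element. A CArG box was present in 1.47% and an MCAT element in 12.6% of all windows. The slow genes shared none of these motifs beyond the E box, which the fast genes also had. The MEF2 pattern, present in 1.69% of all windows, had no match in the windows shown, which says only that those letters are not there.

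The fast light chains had high values in every muscle, from 11.20 to 12.18 in a table that reaches 13.49. Mylpf, the fast regulatory chain, was at 11.20 in soleus. It was at 11.52 in digastric, 11.76 in masseter, 12.00 in both trapezius and supraspinatus, 12.04 in gastrocnemius, 12.06 in triceps, 12.10 in tibialis anterior and 12.18 in rectus femoris. Soleus was thus the lowest, below the 2 head muscles, while the other 6 muscles lay between 12.00 and 12.18. Of the neighbours in this order, digastric and soleus were 0.32 apart, above the typical difference of 0.24 between 2 arrays at that level, and the other gaps were not above it. Outside soleus, Mylpf was at 12.09 ± 0.07 (SD, n = 3) on the 3 arrays of narrower spread. On the 5 of wider spread it was at 11.88 ± 0.23 (SD, n = 5), with overlap. The part of this split in the Mylpf order was not tested.

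Myl1, the fast essential chain, was at 11.73 in soleus, between triceps at 11.64 and gastrocnemius at 11.83. The other muscles ran from 11.92 in digastric and rectus femoris to 12.18 in tibialis anterior. Its range of 0.54 log2 units was reached or exceeded by 81.7% of all genes, and 0 of the 8 gaps between neighbours was above the typical difference of 0.24 at that level. Apart from soleus, Myl1 was at 11.80 ± 0.14 (SD, n = 3) on the 3 arrays of narrower spread and at 12.03 ± 0.11 (SD, n = 5) on the 5 of wider spread, meeting at 11.92, and the part of this split in its order was not tested.

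The embryonic and atrial chain Myl4 had values from 3.75 in tibialis anterior to 4.55 in rectus femoris and 4.45 in soleus. It lay above 47.6% of genes in tibialis anterior and above 62.0% in rectus femoris. All 9 values may be background, which was not tested. Of all genes, 50.3% had at least its range of 0.81. Apart from soleus, Myl4 was at 4.34 ± 0.27 (SD, n = 3) on the 3 arrays of narrower spread and at 3.87 ± 0.12 (SD, n = 5) on the 5 of wider spread, without overlap. Such a separation upward was present for 10.2% of all genes, and its part in the Myl4 order was not tested.

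Soleus was then set against the other 8 muscles, the comparison in which slow and fast isoforms can be read against a known slow muscle. All 3 slow light chains were higher in soleus than in each of the 8 others, and the 2 that passed the test were Myl2 and Myl6b. Myl2 was at 8.87 in soleus and at 4.69 ± 0.63 in the others (SD, n = 8), an 18.1-fold difference. Myl6b was at 8.46 in soleus and at 4.79 ± 0.56 in the others (SD, n = 8), a 12.7-fold difference. Myl3 differed most, at 10.39 in soleus and 4.80 ± 1.36 in the others (SD, n = 8), or 48.0-fold, and did not pass. Its spread among the other muscles was the widest of the 6.

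In the limma fit over all 22180 genes with Benjamini-Hochberg adjustment, Myl2 differed by 4.18 (SE 0.56, adjusted p = 0.0108), Myl6b by 3.67 (SE 0.49, adjusted p = 0.0109) and Myl3 by 5.59 (SE 1.15, adjusted p = 0.0927). Genes called higher in soleus made up 0.23% and genes called lower 0.0812% of all tested. Soleus lay above all others for 11.5% and below all others for 12.7% of genes. Mylpf was at 11.20 in soleus and at 11.96 ± 0.21 in the others (SD, n = 8), with soleus below each of the 8, a difference of -0.76 (SE 0.24) that did not pass in limma (unadjusted p = 0.00854, adjusted p = 0.439). Myl1 differed by -0.21 (SE 0.21, limma adjusted p = 1.0) and Myl4 by 0.40 (SE 0.30, limma adjusted p = 0.967), each with soleus inside the range of the others.

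The soleus side is 1 array, assumed to vary like the others, and an exact permutation test of 1 array against 8 cannot go below 0.111 on the absolute difference, or 0.222 with the one-sided p doubled. Against the other 3 hindlimb arrays alone, Myl2 was 4.20 and Myl6b 3.99 higher without a call (limma adjusted p = 0.196 and 0.136), and when a term set the 3 arrays of narrower spread apart Myl3 passed as well (limma adjusted p = 0.0191). In whole muscle, more slow fibres and more slow light chain RNA per fibre cannot be told apart.

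**Figure D3:**
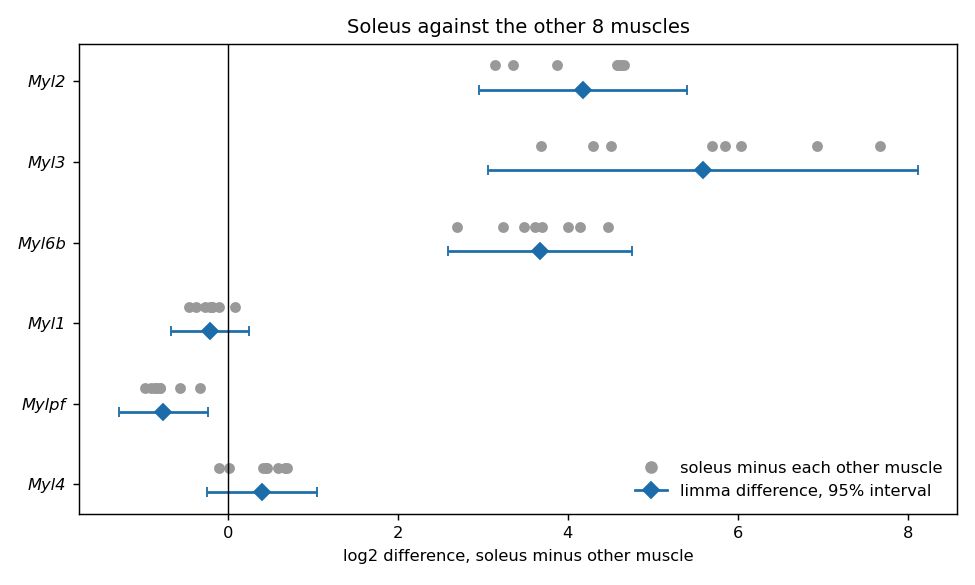
Log2 difference of soleus minus another muscle (x axis) for the 6 light chain genes (y axis). Grey points are soleus minus each of the 8 other muscles, and blue diamonds with bars are the limma difference with its 95% interval. Each interval is for 1 gene, without adjustment for the number of genes, and soleus is 1 array. After adjustment Myl3 and Mylpf did not pass. The intervals of Myl2 (2.96 to 5.40), Myl3 (3.06 to 8.11) and Myl6b (2.59 to 4.75) lie above 0, that of Mylpf (-1.28 to -0.24) below it, and those of Myl1 and Myl4 span it.

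A slow minus fast index was formed per array from Myl2 and Myl3 against Myl1 and Mylpf, each gene centred on its mean over the 9 arrays. The index, which leaves out Myl6b, was 4.77 in soleus, 0.78 in gastrocnemius, 0.55 in trapezius and 0.20 in triceps. It was -0.99 in rectus femoris, -1.10 in supraspinatus, -1.12 in tibialis anterior, -1.26 in digastric and -1.82 in masseter. With Myl6b included, the mean of the 3 slow genes was 9.24 in soleus, 5.86 in trapezius, 5.56 in gastrocnemius and 5.36 in triceps. The place of gastrocnemius before trapezius thus depends on this choice. Soleus exceeded the mean of the other 8 by 4.88 for the slow pair and differed from it by -0.48 for the fast pair, so that the slow genes gave 91.0% of the difference in the index. Among the 8 others the slow pair spanned 2.61 log2 units and the fast pair 0.42. The fast genes lay near the top of the scale, at 11.20 to 12.18 in a table that reaches 13.49. Myl3 in masseter lay below the median of its array. How far the place of each gene on the scale shapes this share and these spans was not tested. Myh7, the slow heavy chain, was at 11.62 in soleus, 8.64 in trapezius, 8.53 in gastrocnemius, 7.66 in triceps and from 3.68 to 5.49 in the other 5. Over the 8 muscles without soleus the Pearson r of Myh7 was 0.946 with Myl2, 0.924 with Myl3 and 0.427 with Myl6b. Spearman rho over the same 8 was 0.595 with Myl2, 0.929 with Myl3 and 0.381 with Myl6b, and for Myl2 3 muscles lie above 5 of nearly equal value.

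**Figure D4:**
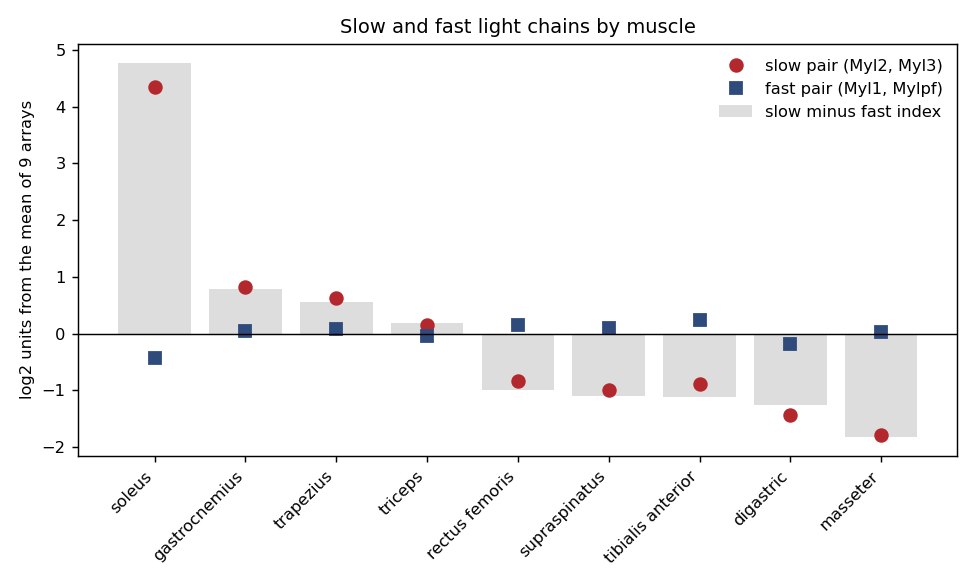
Mean of the slow pair Myl2 and Myl3 (red circles) and of the fast pair Myl1 and Mylpf (blue squares), each gene centred on its mean over the 9 arrays, in log2 units (y axis) by muscle (x axis), with their difference as grey bars. The bars run from 4.77 in soleus to -1.82 in masseter, and the fast pair stays between -0.43 and 0.24.

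Region by region, 0 of the 6 light chain genes passed in any of the 3 comparisons. Myl3 came closest. It was at 6.58 ± 2.72 in hindlimb muscles (SD, n = 4), 5.44 ± 0.95 in shoulder and forelimb muscles (SD, n = 3) and 3.09 ± 0.53 in head muscles (SD, n = 2). Each of the 4 hindlimb arrays and each of the 3 shoulder and forelimb arrays lay above both head arrays. Hindlimb exceeded head by 3.49 (SE 1.33, 95% interval 0.54 to 6.44, limma unadjusted p = 0.0247, adjusted p = 0.398) and shoulder and forelimb exceeded head by 2.35 (SE 1.40, limma adjusted p = 0.756).

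Genes called by limma in any direction made up 0.00902% in hindlimb against head, 0.00451% in hindlimb against shoulder and forelimb and 0% in shoulder and forelimb against head. At an unadjusted limma p under 0.05, 1 member, Myl3, was higher in the first comparison, beside 5.45% of all genes. In hindlimb over shoulder and forelimb 0 members were higher, beside 1.84% of all genes, and in shoulder and forelimb over head 0 members, beside 3.17%. The share of all genes that lay above in every array was 11.4% for hindlimb over head, with 1 member (Myl3), and 15.2% for shoulder and forelimb over head, with 3 members (Myl3, Myl6b and Mylpf).

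Hindlimb minus shoulder and forelimb was 0.72 for Myl2, 1.14 for Myl3 and 0.19 for Myl6b (limma adjusted p = 1.0 for each), and -0.33, -0.13 and -0.80 without soleus. Without soleus, hindlimb minus head was 2.22 for Myl3, 0.40 for Myl2 and -0.06 for Myl6b. Mylpf was at 11.88 ± 0.46 in hindlimb (SD, n = 4), 12.02 ± 0.03 in shoulder and forelimb (SD, n = 3) and 11.64 ± 0.17 in head muscles (SD, n = 2). Its hindlimb mean without soleus was 12.11, and the 3 lowest Mylpf values were those of soleus, digastric and masseter. In the head muscles this low Mylpf stood beside the lowest Myl3 values, and in soleus beside the highest. The mean of 7 salivary gland markers was 2.42 to 2.69 in hindlimb, 2.58 to 2.65 in shoulder and forelimb, and 3.12 in digastric and 3.55 in masseter. Among them Klk1 was at 7.28 in masseter and 0.91 in digastric, and Bpifa2 at 5.16 in digastric and 3.74 in masseter, above its 2.24 to 2.99 elsewhere. Aqp5 (4.72 in masseter, 4.85 in digastric), Prol1 (1.03, 0.93) and Muc19 (3.64, 3.41) lay inside the range of the other arrays. Smr3a and Amy1 were highest in digastric (2.42 and 4.18), with masseter (1.53 and 2.94) inside the range of the other arrays. The part of these markers in the head values of Myl3 and Mylpf was not tested. Trapezius, the muscle with the second highest Myl2 and Myl6b, also had the highest mean of 5 white adipocyte markers, 6.62 against 3.81 to 4.96 in the other arrays, and their part in its values was not tested.

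The other myosin light chains did not follow the slow ones as a group. Of 6 measured, 0 passed in soleus against the other 8 muscles, with a median difference of 0.27, beside -0.03 over all genes and 4.18 for the 3 slow members. Myl12a, a regulatory chain of nonmuscle myosin, was at 9.77 in soleus and at 7.89 ± 0.37 in the others (SD, n = 8), a 3.69-fold difference that did not pass (log2 difference 1.88, limma adjusted p = 0.0585), with soleus above each of the 8. Its second probe set differed by 0.93. Its near relative Myl12b differed by 0.17, and signal shared between the 2 genes was not tested. Myl9, the smooth muscle regulatory chain, differed by 0.07 and Myl6, the nonmuscle essential chain, by 0.38, at values between 3.08 and 4.12 near the array medians. A soleus value above all others, as for Myl12a, was present for 11.5% of all genes.

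Among 7 measured genes of light chain phosphorylation 0 passed in the same test. Over all genes, soleus lay below all others for 12.7% and above all others for 11.5%. Mylk2, the skeletal muscle light chain kinase, was at 8.78 in soleus, and from 9.15 in digastric to 10.25 in rectus femoris in the others. It differed by -1.14 (SE 0.35, limma adjusted p = 0.423), with the soleus value below each of the 8. Mylk4, a further member of the kinase family, was at 7.06 in soleus, and from 8.91 in gastrocnemius to 10.96 in masseter in the others, a difference of -2.76 (SE 0.64, limma adjusted p = 0.157). Ppp1r12b, a regulatory subunit of myosin phosphatase, was 1.11 higher in soleus (SE 0.32, limma adjusted p = 0.345) and also above each of the 8.

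Genes of the thin filament and of fast fibres were read beside the light chains. Of 8 slow thin filament and slow fibre genes 2 were called higher in soleus, the slow troponin T gene Tnnt1 (4.77, limma adjusted p = 0.0306) and the slow tropomyosin gene Tpm3 (4.18, limma adjusted p = 0.0395). The second Tpm3 probe set differed by 1.20. All 8 differences were positive, with a median of 4.07, beside 9949 positive differences among all 22180 genes. Of 10 fast genes 3 were called lower, Mybpc2 (-3.66), Pvalb (-3.60) and Actn3 (-2.90), with limma adjusted p from 0.00107 to 0.0209. The 10 differences were negative with a median of -0.59, beside 12231 negative differences among all 22180 genes. Troponin I and C genes of the fast type, Tnni2 and Tnnc2, differed by -0.32 and -0.33, close to Myl1 (-0.21), while Myh4, the IIb heavy chain, was 14.6-fold lower in soleus (-3.87, limma adjusted p = 0.000974). Of 10 heavy chain genes Myh4 was called lower and Myh7b, a slow type heavy chain gene, higher (2.04). Myh7, the slow heavy chain, differed most of the 10 (5.76, SE 1.76) and was not called.

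Among 11 measured fibre type regulators 1 was called higher in soleus, Prox1, a homeobox factor of slow muscle, at 6.57 in soleus and 4.07 ± 0.35 in the others (SD, n = 8), a difference of 2.50 (limma adjusted p = 0.0109). The median differences were 0.60 for these regulators, -0.35 for 4 myosin assembly factors and 0.19 for 6 skeletal fibre markers. They were -0.05 for cardiac, 0.47 for smooth muscle, 0.10 for immature fibre, -0.26 for salivary gland and -0.04 for white adipocyte markers, with 0 called in each of these lists by limma.

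**Figure D5:**
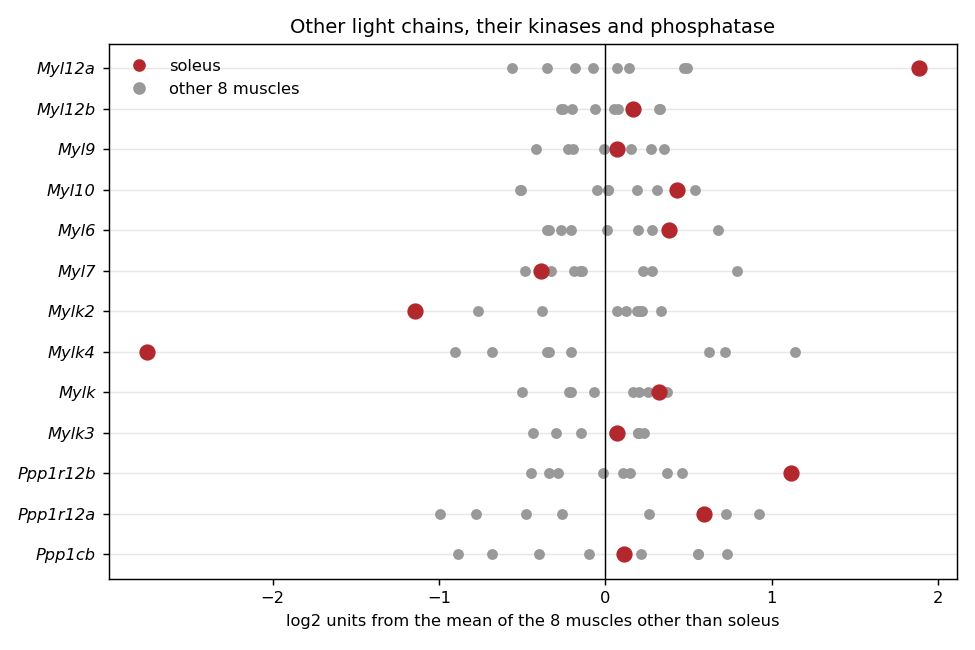
Log2 units from the mean of the 8 muscles other than soleus (x axis) for the other light chains, the light chain kinases and phosphatase subunits (y axis), with soleus in red and the 8 other muscles in grey. Soleus lies above all others for Myl12a (1.88) and Ppp1r12b (1.11) and below all others for Mylk4 (-2.76) and Mylk2 (-1.14). Among all genes it lies above all others for 11.5% and below all others for 12.7%.

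Genes whose values ran most like each light chain over the 9 arrays were ranked by Pearson r among the genes above the median gene with a range of at least 1 log2 unit, 3691 or 3692 per member. For Myl3 they were Tnni1 (0.977), Tnnc1 (0.972), Tmem131l (0.969), Fzd9 (0.965) and Tnnt1 (0.964), the first, second and last being slow troponin genes. Without soleus, over 8 arrays, these r values ran from 0.889 to 0.927. For Myl2 they were Ampd3 (0.977), Tnnc1 (0.976), Tnni1 (0.975), Atg13 (0.973) and Tnnt1 (0.970), and from 0.811 to 0.947 without soleus.

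For Myl6b they were Nuak1 (0.980), Dffa, Kremen1, Rapgef1 and Gabarapl1 (0.958), with 0 troponin genes among them, and r from 0.737 to 0.872 without soleus. The r of Myl6b was still 0.917 with Tnni1 and 0.895 with Tnnc1 over the 9 arrays, and 0.632 and 0.558 without soleus. Mylpf ran most like Mylk2, the kinase of skeletal light chains, and Myorg (0.983 each), followed by Slc37a4 (0.980), Unc5a and Prkab2 (0.969). Over the 8 arrays without soleus r was 0.978 for Slc37a4, 0.968 for Mylk2 and 0.954 for Myorg, and lowest for Unc5a (0.936). Myl1 ran most like Tmem87a (0.951), Capza2, Prkca, Ik and Stt3b (0.920), with r from 0.931 to 0.947 without soleus. Myl4 had the lowest values of the 6 over the 9 arrays, from 0.839 for Vsig8 through Hes2, Cilp2 and Grik5 to 0.809 for Ggn. Without soleus its r ran from 0.785 for Cilp2 to 0.942 for Vsig8. Whether the Myl4 values lie above background was not tested. All these r values describe 9 single arrays that share 1 normalization, and were the highest of the genes ranked.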

How the data were processed

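Total RNA of frozen muscles was biotin labelled and hybridised to mouse whole-transcript gene arrays, per the labels' protocols. The authors deposited log2 expression values, and GCRMA is the method in the submitters' processing notes, with no version. That the values are log2 was judged from their range of 0.12 to 13.49, and no further normalization was applied. No genome build for the array is stated in the labels.

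Of 41345 probe sets, 23521 had 1 gene symbol in the platform annotation, 1814 had several and 16010 had none, and 23328 matched a GRCm38.p6 gene by Entrez identifier. The probe set with the highest mean stood for each of 22180 genes. Region contrasts and soleus against the other 8 arrays were fitted with limma 3.58.1 in R 4.3.3 (lmFit, eBayes, Benjamini-Hochberg over all genes, threshold 0.05), after a test on simulated data. With 1 array per muscle, p-values measure the spread between muscles, and the spread within a muscle was not measured. The named genes were the 6 light chain genes, members of the gene lists, and the 5 genes most correlated with each light chain, leaving out predicted and clone-type symbols. The light chain genes and the lists were chosen with earlier results of these data known. Of 101 listed genes 95 were measured. Alternatives were another normalization, a filter on low values, averaged probe sets, a variance trend, each array left out, and the value range of the arrays.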

Additional observations from a re-analysis of the deposited data

Results flagged for a closer look

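Within the 4 hindlimb arrays, Mylpf in soleus (11.20) was apart from tibialis anterior, gastrocnemius and rectus femoris (12.04 to 12.18), with a gap of 0.865 of the range, above the 95% critical value of the Dixon test. Myl4 in tibialis anterior (3.75) was apart from soleus, gastrocnemius and rectus femoris (4.44 to 4.55), with a gap of 0.855 of the range, likewise above it. The test was read at both ends for each of the 6 light chain genes and for the slow minus fast index, with no other flag. Chance alone marks about 5% of groups in this way. Of the other 3 hindlimb arrays, gastrocnemius and rectus femoris have the narrower value spread and soleus the wider, and the part of this in the Myl4 value was not tested.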

How the results depend on the processing

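In soleus against the other 8 muscles, Myl2 stayed between 4.03 and 4.33, Myl3 between 5.08 and 6.16 and Myl6b between 3.51 and 3.99 over 17 alternatives. Against the hindlimb arrays alone 0 light chain genes were called by limma (Myl2 4.20, adjusted p = 0.196, Myl6b 3.99, adjusted p = 0.136). With the array value range as a term Myl3 was called (6.16). Without a single array the number called was 2 each time. Calls over all genes were 69, against 0 of 22180 by limma on the hindlimb arrays alone (1570 at an unadjusted p under 0.05), 134 with the range term, 26 on the arrays of wider range, 43 without tibialis anterior, 32 without supraspinatus and 36 without triceps. In hindlimb against head they were 2, against 19 without soleus, 4 without digastric and 0 without masseter, and 1 in several other settings. In shoulder and forelimb against head they were 0, against 4 without digastric. The range of Mylpf was 1.22 under cyclic loess, against 0.97. The slow minus fast index, soleus minus the mean of the others, stayed between 5.17 and 5.56.

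Uncalled differences changed sign as follows. Hindlimb minus head was 0.0425 for Myl1 under cyclic loess, and for Myl6b it ran from -0.0634 (without soleus) to 1.43 when single arrays were left out. Hindlimb minus shoulder and forelimb, with single arrays left out, ran from -0.33 to 1.23 for Myl2, from -0.13 to 1.82 for Myl3 and from -0.80 to 0.69 for Myl6b, each lowest without soleus. It ran from -0.24 to 0.0841 for Mylpf, highest without soleus, and from -0.0534 (without triceps) to 0.13 for Myl1. For Myl1 it was -0.0126 on the arrays of wider range. Myl6b was also below 0 without supraspinatus, and Myl1 without tibialis anterior. Shoulder and forelimb minus head for Myl4 ran from -0.062 (without masseter) to 0.0872 with single arrays left out. It was -0.0032 with median centring, -0.0162 under cyclic loess, -0.0934 with the range term and -0.0448 on the arrays of wider range. The causes were not tested. No paired analysis was possible because the labels give no replicate numbers and each array is a different muscle. Leaving out soleus gives no soleus comparison.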
